A study of Mus musculus with 24 samples.

Results

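The genes described here encode splicing factors and heterogeneous nuclear ribonucleoproteins (hnRNPs). They are the protein coding genes of the count table whose symbols start with Hnrnp, Srsf and a digit, Sf3a or Sf3b and a digit, Prpf and a digit, or Snrp followed by a letter from a to g. The rule uses names only and found 64 of the 56748 genes in the table: 20 hnRNP genes, 11 SR protein genes (Srsf), 9 genes of the SF3A and SF3B complexes, 13 PRPF genes and 11 Snrp genes. All 64 passed the filter on low counts. The study measured RNA by bulk sequencing in 24 libraries of wild-type mouse T cells grown in culture, 6 each of Th1, Th17 and regulatory T cells (Treg), polarized in vitro, and of activated CD8+ T cells. In each cell type 1 library received the vehicle DMSO and the other 5 received 1 kappa opioid receptor (KOR) agonist each, at 0.1 µM for up to 5 days. The agonists, all derived from perhydroquinoxaline, go by the codes WMS-64, WMS-75, WMS-76, then WMS-83, and also WMS-200. The sample titles give these codes and the column names only their numbers. The titles add a suffix to each code, which for most codes differs between cell types, and libraries were grouped by code alone. All groups share the wild-type genotype, culture in vitro and RNA libraries enriched for poly(A) RNA, and the labels give no strain, age, sex or number of animals. No combination of cell type and treatment has a replicate, so the 6 libraries of a cell type, which differ in treatment, stand in for replicates of it, and p-values measure the spread between these libraries.

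Splicing removes introns from nuclear RNA. The Snrp genes encode proteins of the small nuclear ribonucleoproteins (snRNPs): a ring of Sm proteins that sits on the U1, U2, U4 and U5 RNAs, and proteins particular to U1 or U2. SF3A and SF3B are parts of the U2 snRNP, in which SF3B1 grips the branch point of the intron. The PRPF proteins work across the spliceosome, from U1-associated factors to PRPF8 at the heart of the U5 snRNP. SR proteins bind exons and mostly favour their inclusion, whereas many hnRNPs coat nascent RNA and favour skipping. In T cells this machinery is best known for CD45, the phosphatase encoded by Ptprc, whose variable exons are skipped upon activation under the control of HNRNPLL, with HNRNPL as a further repressor of the same exons. Many SR and hnRNP genes also make transcripts with a poison exon or a retained intron, which gene counts do not separate from the coding form.

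Library totals ran from 15188284 to 21946887 counts. Markers followed the labels: Foxp3 averaged 281.8 CPM (counts scaled to a common library total by TMM) in Treg and 33.96 in Th17, Il17f averaged 830.8 CPM in Th17, and Ifng averaged 592.1 CPM in Th1 and 1369.2 in CD8. Cd8a averaged 388.7 CPM in CD8 and still 84.05 in Th17. Summed markers of B cells (5 genes, none at 0 throughout a cell type) ranged from 2.23 to 11.8 CPM over all libraries. Those of myeloid cells (6 genes) ranged from 0.51 to 3.59 CPM and those of erythroid cells (5 genes) from 0 to 0.57. Those of natural killer cells (4 genes) ranged from 0.15 to 14.3 CPM, highest in Th17. The Th17 sum averaged 9.17 CPM, of which Gzma made 9.01, Klra8 0.10, Ncr1 0.04 and Klrb1c 0.03. At 0 throughout a cell type were Klra8 in Treg, and the hemoglobin genes Hbb-bt in Th1, Th17 and Treg, Hbb-bs in Th1 and Th17, Hba-a2 in all but Th17 and Hba-a1 in Treg. The Treg libraries stood apart in make-up: ribosomal protein genes took 2.27% ± 0.40 (SD, n = 6) of their counts against 10.3% ± 0.33 in CD8, 11.3% ± 1.16 in Th17 and 11.7% ± 0.50 in Th1, and mitochondrially encoded genes took 1.13% against 0.34% to 0.57%. Their part in the differences between Treg and the other cells was not tested. In these bulk samples fewer cells of a type and less RNA per cell cannot be told apart. Every column name holds a number after WT whose meaning no label states. Among Treg libraries it equals 3 under DMSO or WMS-200 and 2 under the remaining 4 treatments. It is 4 throughout Th1 and 2 throughout CD8, while Th17 has 2 under DMSO, 3 under WMS-83 and 1 under the rest.

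The 64 genes together took between 1.44% and 1.58% of the counts of every library. The mean share was 1.54% ± 0.04 (SD, n = 6) in Treg, 1.49% ± 0.03 in CD8, 1.48% ± 0.01 in Th1 and 1.47% ± 0.03 in Th17. The families within that total differed more. Snrp genes took 0.104% ± 0.006 in Th1, 0.097% ± 0.008 in Th17 and 0.104% ± 0.003 in CD8, but 0.043% ± 0.007 in Treg, where the highest library (0.049%) lay below the lowest of the other 18 (0.083%). SR protein genes went the other way, with 0.287% ± 0.017 in Treg and 0.205% to 0.208% elsewhere, and the lowest Treg library (0.266%) lay above the highest of the other 18 (0.227%). hnRNP genes took 0.802% to 0.812% in every cell type. Taken over protein coding genes without ribosomal protein and mitochondrial genes, the share of all 64 was 1.63% in Treg and 1.71% to 1.74% in the other cell types, so the place of Treg in the order depends on the denominator.

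Per kilobase of gene length, the most abundant members were Hnrnpa1, Hnrnpa0 and Hnrnpab, all hnRNPs of the A/B class. Hnrnpa1, a core protein of the hnRNP particle, averaged 265.5 CPM per kilobase over the 24 libraries, Hnrnpa0 220.5 and Hnrnpab 184.6. Snrpb, which encodes the Sm protein B, averaged 135.9. Low in the range were Hnrnpr with 6.78, Prpf40b with 4.01 and Srsf12, a little-studied SR relative, with 0.69. The order covers a wide span, and Srsf12 is the member with the fewest counts, with intervals below that are among the widest.

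Differences between the 4 cell types reached nearly the whole set. In an F-test of edgeR's quasi-likelihood model, with Benjamini-Hochberg adjustment over all 15885 genes tested and a threshold of 0.05, 60 of 64 members differed among the cell types, where 87.4% of all genes did. The other 4 were Hnrnpul2 (adjusted p = 0.798), Srsf2 (0.218), Srsf7 (0.179) and Prpf3 (0.270). Srsf2 and Srsf7 encode exon-binding SR proteins, and Prpf3 encodes a U4/U6 protein.

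Most of this lay between Treg and the rest. Against the mean of Th1, Th17 and CD8, 18 members were higher in Treg, where 42.6% of all genes were, and 39 were lower, where 37.9% of all genes were. The median log2 fold change was -0.40 over the members and 0.10 over all genes tested. The split ran along the families: all 11 Snrp genes and 8 of 9 SF3A/SF3B genes were lower, 8 of 13 PRPF genes were lower and 4 higher, 10 of 20 hnRNP genes were lower and 7 higher, and among 11 SR protein genes 6 were higher and 2 lower. Median log2 fold changes were -1.71 for Snrp, -1.07 for SF3A/SF3B, -0.40 for PRPF, -0.09 for hnRNP and 0.13 for SR protein genes. The levels of 35 members lay in all 6 Treg libraries below all 18 others, which held for 21.9% of all genes, and those of 12 members lay above all others, which held for 17.6%. Without the 2 Treg libraries of WT number 3, 20 members were higher and 39 lower. Upper quartile scaling raised the median of all genes from 0.10 to 0.28 and gave 23 higher and 36 lower members, and it turned the hnRNP genes to 10 higher and 8 lower.

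**Figure D1:**
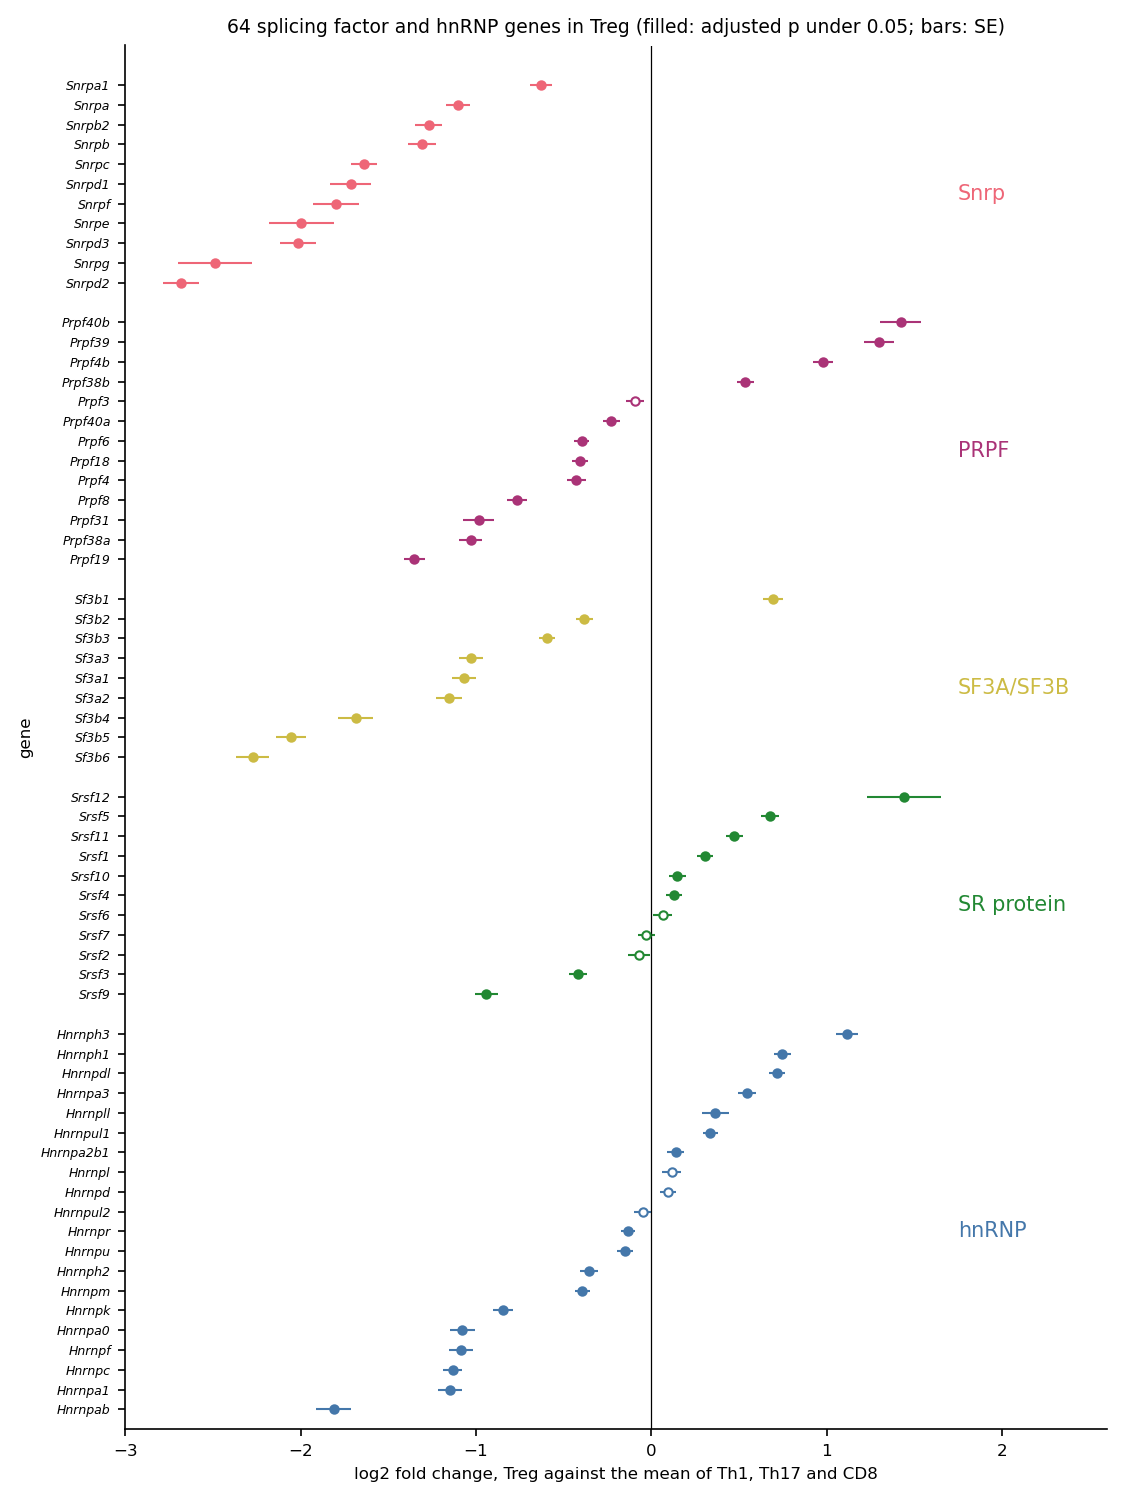
Log2 fold change of each of the 64 genes in Treg against the mean of Th1, Th17 and CD8 (x axis), with its standard error as a bar, grouped by family along the y axis. Filled points passed the threshold of 0.05 on adjusted p, open points did not. All 11 Snrp genes lie left of zero, between -2.68 and -0.63, and Sf3b1 is the 1 gene of SF3A/SF3B to the right of it.

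Snrpd2 and Snrpg, of the Sm ring, had the largest falls of the 64 genes in Treg. Snrpd2 encodes the Sm protein D2 (chromosome 7, 18883647 to 18887467, plus strand, as the file gives it, with no build named). Its level ran from 14.6 to 27.3 CPM in Treg (median 20.2) and from 85.6 to 171.0 CPM in the other 18 libraries, with medians of 146.4 in Th1, 117.7 in Th17 and 128.6 in CD8. The groups lay far apart, and the fold change was 6.42 down (log2 -2.68 ± 0.10 SE, edgeR quasi-likelihood adjusted p = 1.6e-17). Snrpg, for the smallest ring protein, ran from 4.12 to 19.7 CPM in Treg and from 54.9 to 117.6 elsewhere, a fall of 5.62-fold (log2 -2.49 ± 0.21). Snrpd3 ran from 13.1 to 28.9 CPM in Treg and from 70.3 to 112.2 elsewhere, and fell 4.04-fold. Snrpe (-2.00 ± 0.19), Snrpf (-1.80 ± 0.13), Snrpd1 (-1.71 ± 0.12) and Snrpb (-1.31 ± 0.08) complete the ring, and each was lower in every Treg library than in any other library. Snrpe has a processed pseudogene, Snrpert, that the table counts separately at 1.13 CPM in Treg and 5.33 to 6.62 elsewhere. Reads of the copies may be split between them, and the 2 together averaged 16.4 CPM in Treg and between 63.998 and 70.1 elsewhere.

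Genes for the proteins particular to U1 and U2 were lower as well. Snrpc, for the U1 protein C, fell by 1.64 ± 0.07 on the log2 scale, Snrpa, for the U1 protein A, by 1.10 ± 0.07 and Snrpb2, a U2 protein, by 1.27 ± 0.08. Snrpa1, for the other U2 protein of this pair, had the smallest change of the family, -0.63 ± 0.06, with 24.7 to 34.4 CPM in Treg and 35.8 to 60.2 elsewhere. Even there the Treg libraries lay below all others.

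In the SF3 complexes of the U2 snRNP, 1 subunit gene went against the rest. Sf3b6 encodes the small subunit that contacts the branch point (chromosome 12, 4867544 to 4877659, plus strand, as the file gives it). It ran from 11 to 17.99 CPM in Treg (median 14.2), from 52.2 to 64.7 in Th1 and CD8, and from 89.0 to 137.7 in Th17, so the Treg libraries were lowest and the Th17 libraries highest with no overlap. Its fall in Treg was 4.84-fold (log2 -2.27 ± 0.09, edgeR adjusted p = 3.1e-17). Sf3b5, for another small subunit, fell 4.16-fold. Sf3b4, Sf3a2, Sf3a1, Sf3a3, Sf3b3 and Sf3b2 fell by 1.69, 1.15, 1.07, 1.03, 0.59 and 0.38 on the log2 scale, in that order. Sf3b1, the large scaffold that holds the branch point, rose: its level was 960.2 CPM in the Treg library with DMSO, 875.8 with WMS-200, and 657.1, 737.2, 769.5 and 712.4 with WMS-64, WMS-75, then WMS-76 and WMS-83, and 435.1 to 535.2 CPM in the other 18. Every Treg library lay above all others, for a rise of 1.62-fold (log2 0.70 ± 0.06, edgeR adjusted p = 2.3e-11).

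Since the SF3 genes moved together apart from Sf3b1, their promoters were set side by side. RefSeq promoters (GRCm38.p6) were matched by symbol for 56 of the 64 members, with 73 start sites, and the 250 bases before each start were searched on both strands. The letters CCGGAAG, a core found in sites of ETS factors, were present before a start of 18 of the 56 members, among them 6 of 7 matched SF3 genes, 4 of 11 SR protein genes, 3 of 9 Snrp genes, 3 of 11 PRPF genes and 2 of 18 hnRNP genes. Counted by start site, 30.1% of the members' windows and 6.91% of all 32851 windows held them. All windows were not limited to genes that passed the filter on low counts, and no share over those genes was taken. The CCAAT box (CCAAT) was in 46.6% of member windows and 33.8% of all, the E-box CACGTG in 10.96% and 6.02%, and TATAAA in 6.85% and 12.4%. No motif searched contains another. The last 80 bases before the start are shown for 4 SF3 genes that fell and hold CCGGAAG there, in capitals, and for Sf3b1, which has none in its 250 bases.
Sf3a1: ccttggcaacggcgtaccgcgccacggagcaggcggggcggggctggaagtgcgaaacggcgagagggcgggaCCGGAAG
Sf3a2: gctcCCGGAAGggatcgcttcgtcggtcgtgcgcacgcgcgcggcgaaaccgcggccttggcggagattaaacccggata
Sf3b2: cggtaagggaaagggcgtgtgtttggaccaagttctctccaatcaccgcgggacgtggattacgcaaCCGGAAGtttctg
Sf3b6: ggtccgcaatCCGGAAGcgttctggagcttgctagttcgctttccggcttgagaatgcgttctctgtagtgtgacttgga
Sf3b1: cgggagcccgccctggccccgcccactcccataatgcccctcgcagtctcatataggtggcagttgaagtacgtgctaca
In GRCm38.p6 these lie at chr11:4160274-4160353 (plus strand) for Sf3a1, chr10:80798655-80798734 (plus) for Sf3a2, chr19:5295456-5295535 (minus) for Sf3b2, chr12:4817528-4817607 (plus) for Sf3b6 and chr1:55027479-55027558 (minus) for Sf3b1, all upstream of the annotated start. The first base of the motif lies 7 bases before the start of Sf3a1, 76 before that of Sf3a2, 13 before that of Sf3b2 and 70 before that of Sf3b6, which has a further copy 85 bases before the start. Genes that rose in Treg also hold it, Srsf5 at 23 and 90 bases and Prpf4b at 71 bases before the start. A match of letters is a description and no evidence of binding, and no factor's binding was measured.

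PRPF genes went both ways. Prpf19, the ubiquitin ligase of the complex named after it, fell 2.55-fold in Treg (61.6 to 94.3 CPM against 179.1 to 243.1 elsewhere), and Prpf8 fell 1.70-fold (397.4 to 549.3 CPM against 625.9 to 911.9). Prpf38a (-1.03 ± 0.07) and the tri-snRNP gene Prpf31 (-0.98 ± 0.09) were lower as well. Prpf39, a U1-associated factor, had 206.7, 189.9, 155.0, 171.0, 171.5 and 139.0 CPM in the Treg libraries in the order of treatments above, and 52.7 to 91.6 CPM in the other 18. No libraries overlapped, and the rise was 2.46-fold (log2 1.30 ± 0.08, edgeR adjusted p = 1.3e-12). Prpf40b, a further gene linked to U1, rose 2.68-fold from a low level (25.5 to 49.5 CPM against 7.75 to 18.9). Prpf4b, a kinase of the spliceosome, rose 1.97-fold (241.1 to 314.6 CPM against 121.5 to 186.3), and Prpf38b rose by 0.54 ± 0.05 on the log2 scale.

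Among hnRNP genes Hnrnpab, Hnrnpa1, Hnrnpc, Hnrnpf and Hnrnpa0 were lower in Treg by 2-fold or more, and Hnrnph1, Hnrnph3 and Hnrnpdl higher. Hnrnpab (chromosome 11, 51490927 to 51497674, minus strand, as the file gives it) ran from 100.1 to 231.4 CPM in Treg and from 466.3 to 762.4 CPM elsewhere, a fall of 3.51-fold (log2 -1.81 ± 0.10, edgeR adjusted p = 2.0e-14). Hnrnpa1 fell 2.22-fold, with 320.7 to 522.4 CPM against 868.6 to 1078. Falls of like size were seen in Hnrnpc, which binds uridine tracts (2.19-fold), in Hnrnpf (log2 -1.09 ± 0.07) and in Hnrnpa0 (-1.08 ± 0.07), and Hnrnpk, a poly(C)-binding protein, fell 1.80-fold. In contrast Hnrnph1, which binds G tracts as HNRNPF does, rose 1.68-fold: its Treg libraries held 666.7, 651.5, 588.3, 661.5, 682.4 and 566.9 CPM and the other 18 held 330.6 to 448.9. Hnrnph3 rose 2.17-fold, Hnrnpdl by 0.72 ± 0.05 and Hnrnpa3 by 0.55 ± 0.05 on the log2 scale, each with all Treg libraries above all others. Smaller differences were called for Hnrnpa2b1 (0.14 ± 0.05), Hnrnpul1 (0.34 ± 0.04), Hnrnpr (-0.13 ± 0.04) and the chromatin-associated Hnrnpu (-0.15 ± 0.05). Hnrnpu turned to 0.03 under upper quartile scaling (adjusted p = 0.561) and Hnrnpa2b1 to -0.01 with offsets for gene length (adjusted p = 0.801). Hnrnpa2b1 also lost its call without the Treg library of WMS-76 (adjusted p = 0.053) or that of WMS-83 (0.086). Hnrnpl (0.12 ± 0.05, adjusted p = 0.051) and Hnrnpd (0.10 ± 0.04, adjusted p = 0.051) did not pass in edgeR and did so with DESeq2 (adjusted p = 0.0075 and 0.015) and under upper quartile scaling (0.29 and 0.27). Length offsets put them at -0.01 and -0.09. Both also passed without the 2 Treg libraries of WT number 3 (adjusted p = 0.0029 and 0.042). Hnrnpl passed with limma-voom (0.045) and without the Treg library of DMSO (adjusted p = 0.022), WMS-200 (0.028) or WMS-64 (0.044).

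SR protein genes were the family with more rises than falls. Srsf5 ran from 330.7 to 430.9 CPM in Treg (median 402.7) and from 214.4 to 281.7 elsewhere, with no overlap, and rose 1.60-fold (log2 0.68 ± 0.05, edgeR adjusted p = 2.7e-12). Srsf11 (0.47 ± 0.05) and Srsf1, the prototype of the family (0.31 ± 0.05), also had all Treg libraries above all others. Srsf12 had the largest log2 rise of the 64, 1.44 ± 0.21, at 2.51 to 5.39 CPM in Treg and 0.594 to 2.98 CPM elsewhere, where the ranges overlap. Srsf10 and Srsf4 rose by 0.15 and 0.13. Srsf9 fell 1.92-fold and Srsf3, which also links splicing to mRNA export, fell 1.33-fold. Srsf7 stood at -0.03 ± 0.05 in Treg and was called higher under upper quartile scaling (0.15, adjusted p = 0.0032), so no direction is given for it. Srsf2 stood at -0.07 ± 0.06 and was called lower only without the Treg library of WMS-76 (-0.15, adjusted p = 0.023).

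**Figure D2:**
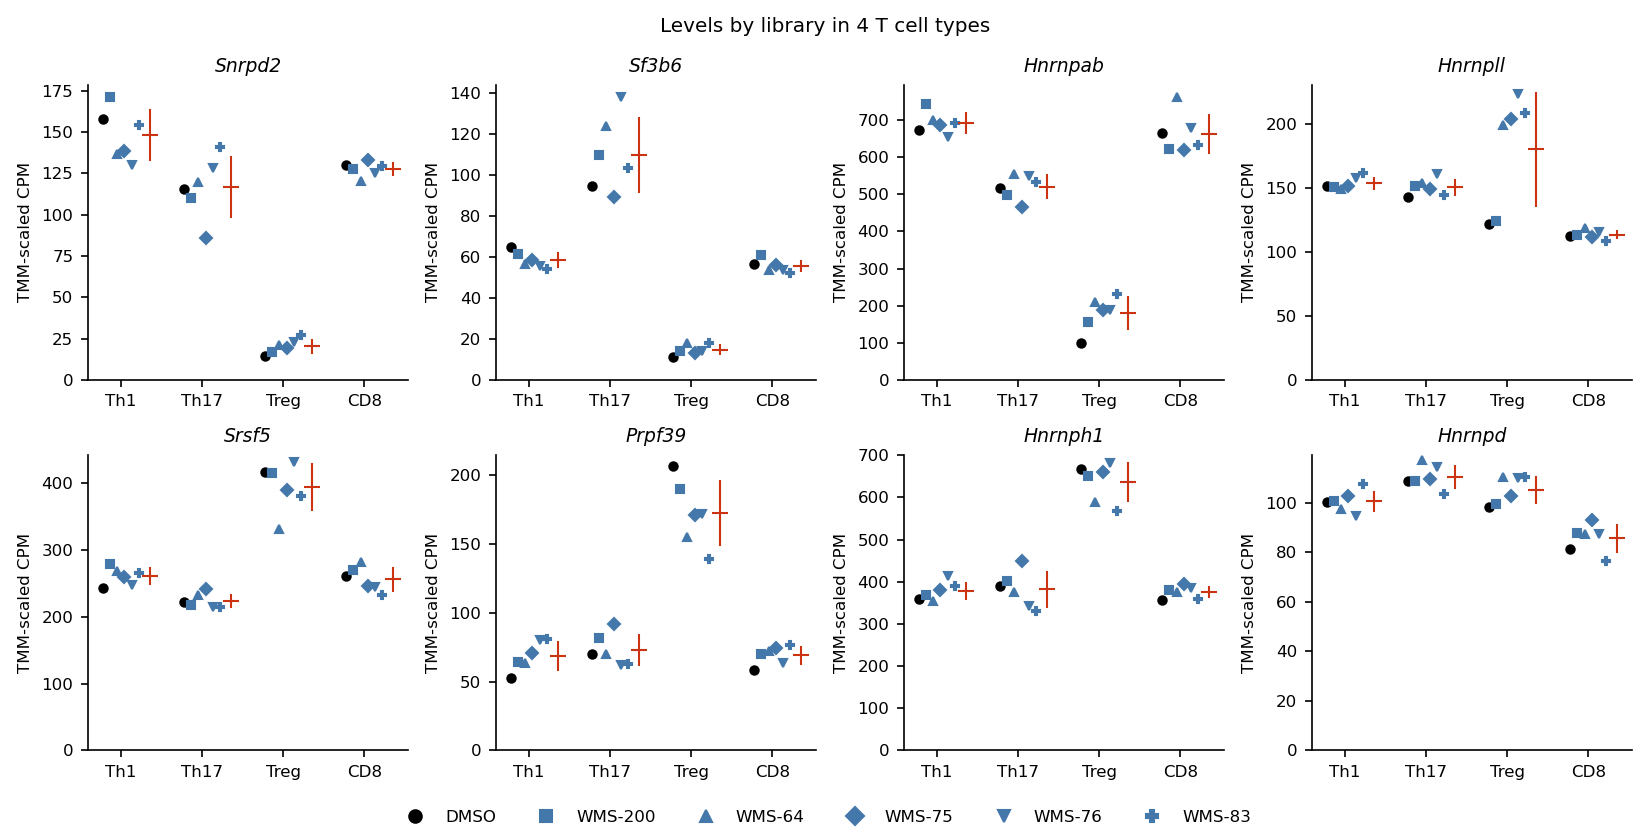
TMM-scaled CPM (y axes, from 0) of 8 genes in every library, by cell type (x axis). Each symbol is 1 library (black circle for DMSO, blue symbols for the 5 agonists) and the red mark beside each cell type is the mean ± SD of its 6 libraries. Snrpd2 and Hnrnpab are lowest in Treg, Sf3b6 is highest in Th17, and Hnrnpll falls into separate levels within Treg.

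Gene length moved with these differences. Over the 64 members the log2 fold change in Treg and the gene length of the table had a Spearman correlation of 0.56, against 0.12 over all 15885 genes, where genes are not independent replicates. The Snrp genes, which fell, were 861 to 3442 bases long apart from Snrpc (6521 bases), against a median of 5125 bases over the members, and longer genes such as Sf3b1 (11370 bases) and Prpf39 (11967 bases) rose. With offsets that remove each library's smooth relation of counts to length, 14 members were higher and 41 lower in Treg, with a median of -0.55, and the hnRNP genes split into 4 higher and 11 lower. All 11 Snrp and 8 of 9 SF3 genes were lower there too, with Snrpd2 at -2.55, and the medians of the families were -1.496 for Snrp, -1.02 for SF3A/SF3B and 0.04 for SR proteins. Prpf39 (0.93), Srsf5 (0.70) and Sf3b1 (0.35) still passed. The call was lost for Hnrnpll (0.01), Hnrnpul1 (0.09), Hnrnpa2b1 (-0.01) and Srsf10 (-0.02).

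**Figure D3:**
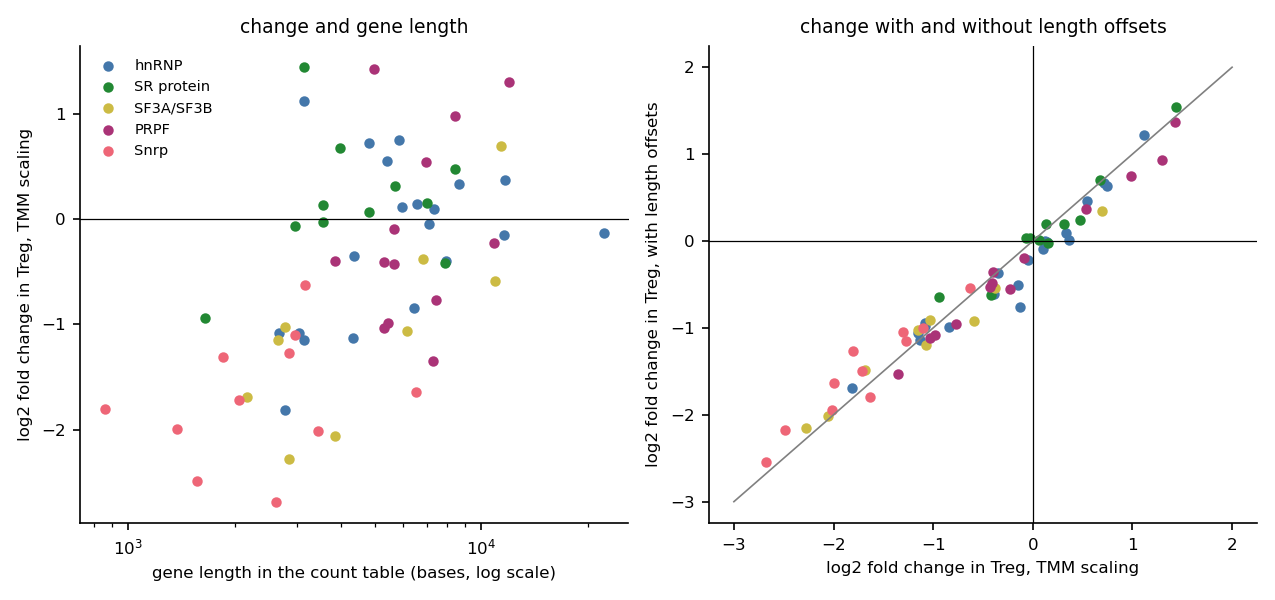
Left, log2 fold change in Treg (y axis) against the gene length in the count table in bases (x axis, log scale) for the 64 genes, coloured by family. Right, the same change with TMM scaling (x axis) and with length offsets (y axis), where the grey line marks equal values. All 11 Snrp genes lie below zero on both axes of the right panel.

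Genes of the same machinery outside the name rule gave the following counts in Treg, from lists chosen with earlier results of these data known, and stand beside 42.6% of all genes higher and 37.9% lower. The LSM genes, whose ring sits on U6 or acts in mRNA decay, were lower in 8 of 8, with a median of -1.35 and a largest fall in Lsm4 (-2.00 ± 0.11). Genes of snRNP assembly, such as those of the SMN complex, were lower in 14 of 15 tested, with Gemin6 at -2.08 ± 0.15 and no member higher. Of 21 other snRNP proteins 14 were lower and 6 higher, from Txnl4a (-1.69 ± 0.07) to the U1 gene Snrnp70 (0.95 ± 0.08). Of 27 genes of the Prpf19 complex and the catalytic steps 23 were lower and 1, Dhx16, higher (0.32 ± 0.06). In the exon junction complex, which marks spliced joints, 7 of 11 were lower, led by Magoh (-2.16 ± 0.08), and 3 higher, led by Acin1 (0.66 ± 0.05). For recognition of the 3' splice site 6 of 11 were lower, led by Rbm17 (-0.86 ± 0.06), and 2 higher, led by the scarce U2af1l4 (1.16 ± 0.47, adjusted p = 0.027). Among SR protein kinases and coactivators 10 of 13 were higher, led by the kinase Clk4 (1.38 ± 0.06), and 3 lower, led by Tra2b (-0.56 ± 0.04), with a median of 0.58. Other splicing regulators split into 14 higher, led by Tia1 (1.25 ± 0.08), and 12 lower of 32, led by Pcbp1 (-1.73 ± 0.08).

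Th17 cells differed from the 2 type 1 cultures, Th1 and CD8, by small amounts. Against their mean, 10 members were higher in Th17, where 25.3% of all genes were, and 11 lower, where 26.3% were, and the median log2 fold change was -0.02 over the members and -0.01 over all genes. By family 4 Snrp genes were lower and none higher, 4 hnRNP genes were higher and 1 lower, 2 SR protein genes were higher and 3 lower, 3 PRPF genes went each way, and in SF3A/SF3B only Sf3b6 was called. In all 6 Th17 libraries 5 members lay above all type 1 libraries and 2 below, where 11.9% and 11.8% of all genes did. Sf3b6 stood out with 94.5, 109.8, 124.0, 89.0, 137.7 and 103.2 CPM in the Th17 libraries, in the order of treatments above, against 52.2 to 64.7 CPM in Th1 and CD8. It rose 1.91-fold (log2 0.94 ± 0.08, edgeR adjusted p = 2.9e-10), and no other member of its complexes passed. Libraries of WT number 1 are all Th17 and those of WT number 4 all Th1. Cell type and that number are therefore partly confounded in this comparison.

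The other rises in Th17 were of 1.29-fold or less. Hnrnpul1 ran from 389.5 to 477.6 CPM in Th17 and from 300.5 to 347.8 in Th1 and CD8 (log2 0.37 ± 0.05). Hnrnpr rose by 0.33 ± 0.04, Srsf3 by 0.31 ± 0.05 and Srsf4 by 0.28 ± 0.05 on the log2 scale. Srsf3 had 412.7 to 475.3 CPM in Th17 and 248.1 to 318.9 in Treg. Hnrnpd, also called AUF1 for its binding to AU-rich elements, rose by 0.25 ± 0.05. Hnrnpab fell by 0.38 ± 0.09, from 620.0 to 762.4 CPM in the type 1 libraries to 466.3 to 554.5 in Th17, with no overlap. Snrpa1 fell by 0.40 ± 0.07 and Prpf40b by 0.45 ± 0.14. Prpf8 (-0.23 ± 0.06) and Srsf5 (-0.20 ± 0.06) were also lower. Hnrnpl stood at -0.14 ± 0.06 (edgeR adjusted p = 0.051) and passed with DESeq2 (0.011), limma-voom (0.034), upper quartile scaling (0.010) and length offsets (0.014), without all Treg libraries (0.0040) and without the 2 of WT number 3 (0.019). It also passed without 1 of 8 libraries: WMS-76 (0.048) or WMS-83 (0.045) in Th1, DMSO in Th17 (0.038), DMSO (0.032), WMS-200 (0.047), WMS-76 (0.044) or WMS-83 (0.032) in Treg, and WMS-83 in CD8 (0.036). Snrpf (-0.32 ± 0.12) and Snrpd2 (-0.25 ± 0.09) were lower too, but without the Th17 library of WMS-75 they stood at -0.22 and -0.17 with edgeR adjusted p of 0.146 and 0.112. Snrpd2 lost its call also without the WMS-200 library of Th17 (0.063). Snrpf lost it without WMS-200 (0.078) or WMS-83 (0.090) in Th17, DMSO (0.065) or WMS-200 (0.061) in Th1, or DMSO (0.065), WMS-200 (0.055) or WMS-75 (0.052) in CD8.

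In the lists outside the name rule Th17 differences were small as well, and the counts stand beside 25.3% of all genes higher and 26.3% lower. Of snRNP assembly genes 7 of 15 were lower, led by Gemin8 (-0.74 ± 0.09), and none higher. Other snRNP proteins gave 6 lower, led by Snrnp35 (-0.40 ± 0.13), and 1 higher of 21, and the LSM genes 2 lower of 8. For recognition of the 3' splice site 4 were lower, led by Rbm17 (-0.42 ± 0.06), and 1 higher of 11. The Prpf19 complex and catalytic genes gave 9 lower, led by Isy1 (-0.65 ± 0.05), and 5 higher of 27, led by Cdc5l (0.27 ± 0.06), and the exon junction complex 4 lower and 2 higher of 11. Among other regulators 9 went each way of 32, from Rbm5 (-0.59 ± 0.06) to Ptbp3, a relative of the exon repressor PTB (0.67 ± 0.07), and among SR protein kinases and coactivators 3 were lower, led by Srpk2 (-0.24 ± 0.05), and 2 higher of 13, led by Clk4 (0.22 ± 0.07).

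Th1 and CD8 cells, both type 1 cultures, differed in few members. In Th1, 2 members were higher than in CD8, where 7.26% of all genes were, and 0 were lower, where 8.69% were, and 5 members had an unadjusted p under 0.05. The called genes were Hnrnpll and Hnrnpd. For 61 of 64 members the libraries of the groups overlapped, which held for 86.3% of all genes, and 3 lay above, which held for 6.26%. Every Th1 library carries WT number 4 and every CD8 library 2, so the cell type and that number cannot be told apart here. With no filter on low counts only Hnrnpll was called (Hnrnpd: adjusted p = 0.054), and with the Treg libraries left out of the fit 4 were.

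Hnrnpll, the regulator of CD45 exons, had the larger difference between the type 1 cultures (chromosome 17, 80336916 to 80369763, minus strand, as the file gives it). In Th1 it had 151.6, 150.6, 148.9, 151.2, 157.5 and 161.9 CPM, in the order DMSO, WMS-200, WMS-64, then WMS-75, WMS-76 and last WMS-83. In CD8 it had 112.8, 113.6, 118.5, 111.4, 115.2 and 108.3 CPM. All Th1 libraries lay above all CD8 libraries, by 1.36-fold (log2 0.44 ± 0.10, 95% interval 0.24 to 0.64, edgeR adjusted p = 0.0021). Th17 cells ran from 143.1 to 160.9 CPM, within the Th1 range or just below it. Against the type 1 mean Th17 stood at 0.19 ± 0.08 (adjusted p = 0.063), which passed with no filter on low counts (adjusted p = 0.012) and when the 2 Treg libraries of WT number 3 were left out (0.00015) or all Treg libraries were (4.7e-05). It also passed without 1 of 6 libraries, those of DMSO in Th1 (0.046), DMSO (0.018), WMS-200 (0.022) or WMS-76 (0.049) in Treg, or DMSO (0.045) or WMS-200 (0.047) in CD8.

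Within Treg, Hnrnpll fell into levels that went with the WT number. The libraries with WT number 3 had 122.2 CPM (DMSO) and 124.3 CPM (WMS-200), and those with WT number 2 had 199.3, 203.7, 223.3 and 208.2 CPM (WMS-64, WMS-75, then WMS-76 and WMS-83). The first pair lay just above the CD8 range and the other 4 above every other library of the study. The rise in Treg of 0.37 ± 0.08 is thus a mean over unlike libraries, and it was 0.01 (adjusted p = 0.89) with length offsets. Ptprc, the CD45 gene, averaged 894.5 CPM in Th17, 1574 in Treg, 1578 in Th1 and 1618 in CD8, and Th17 stood against the type 1 mean at -0.84 on the log2 scale (edgeR adjusted p = 4.4e-11). Its isoforms, on which HNRNPLL acts, cannot be read from gene counts. The genes whose levels followed Hnrnpll most closely over the 24 libraries were Eea1 (Spearman rho = 0.86), Galm (0.86) and Msrb3 (0.85), and among members Hnrnpa2b1 (0.78), Hnrnpd (0.77) and Hnrnpdl (0.58). These coefficients rest on 4 cell types and the levels within Treg, share libraries and depth, and are given as a description.

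Hnrnpd showed the other difference between Th1 and CD8. It had 100.4, 100.6, 97.4, 102.5, 94.8 and 107.4 CPM in Th1 and 81.2, 87.8, 87.2, 93.0, 87.4 and 76.4 CPM in CD8, in the same order of treatments. The ranges did not overlap, and the difference was 1.18-fold (log2 0.23 ± 0.06, edgeR adjusted p = 0.0037).

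The KOR agonists left no member past the threshold across the cell types. For the 5 agonists together against DMSO 0 of 64 members were called, as was 0% of all genes, and 0 had an unadjusted p under 0.05. Estimates ran from -0.27 to 0.25 on the log2 scale, and the 95% intervals of 61 members lay within 0.5 of zero and those of 52 within 0.3. The lowest p values belonged to Hnrnpab (0.21, 95% interval -0.0036 to 0.43) and Hnrnpk (0.12, -0.01 to 0.25), both with an adjusted p of 0.992. DESeq2 and limma-voom called 0 members as well, with 1 and 3 members at an unadjusted p under 0.05. A p above the threshold does not show that the levels were alike, and the intervals give what differences remain possible.

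Each agonist by itself, with 4 libraries against 4, gave 0 members and 0% of all genes. For WMS-200 0 members had an unadjusted p under 0.05, and Srsf4 (-0.12 ± 0.07) and Prpf38b (0.10 ± 0.07) had the lowest p. With WMS-64, where 0% of genes were called, 6 members had an unadjusted p under 0.05, first Hnrnpab (0.32 ± 0.13) and Hnrnpk (0.18 ± 0.08), both with an adjusted p of 0.752. In the WMS-75 libraries (0% of genes) it was 1 member, Hnrnpr (0.14 ± 0.06), followed by Prpf38b (0.12 ± 0.07). WMS-76 (0% of genes) also had 1, Hnrnpll (0.27 ± 0.12), followed by Srsf3 (0.15 ± 0.08). The WMS-76 and DMSO libraries of Treg differ in WT number and in their level of Hnrnpll, as given above. WMS-83 (0% of genes) had 3, first Hnrnpa3 (-0.21 ± 0.08) and Sf3a1 (0.20 ± 0.09). Median half-widths of the intervals were 0.17 for every agonist, and from 55 (WMS-83) to 61 (WMS-200 and WMS-75) of the 64 intervals lay within 0.5 of zero. All 5 comparisons share the 4 DMSO libraries.

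**Figure D4:**
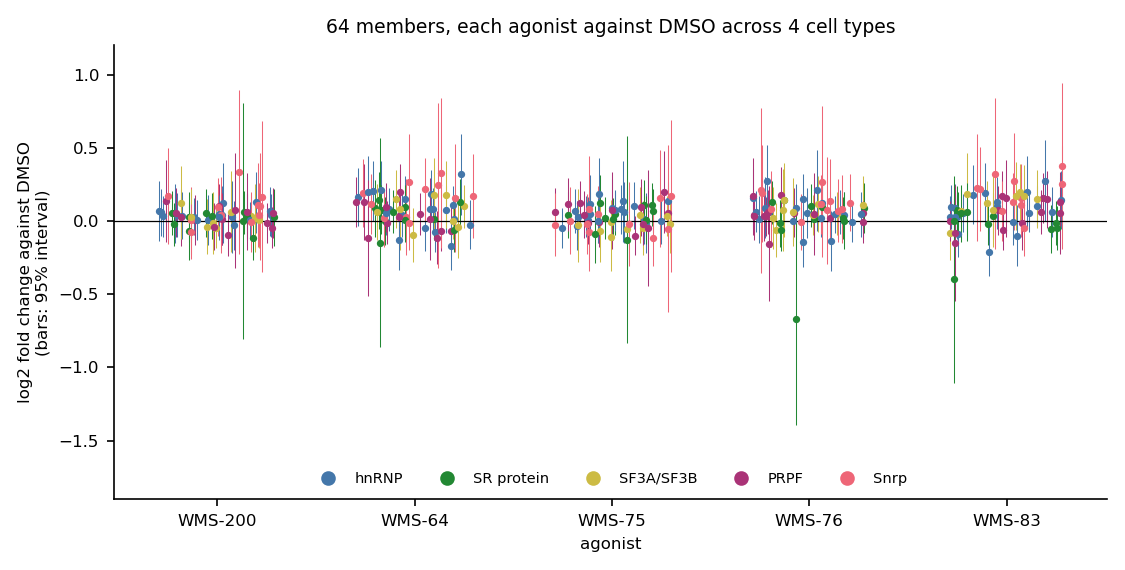
Log2 fold change of each of the 64 genes for each agonist against DMSO across the 4 cell types (y axis), with its 95% interval as a bar, by agonist (x axis, points spread sideways at random) and family (colour). No point passed the threshold, and the lowest point, for WMS-76, is Srsf12 at -0.67.

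The agonists were compared with each other at their 1 common dose. The F-test among the 5 called 0 members and 0% of all genes, with Sf3b5 (unadjusted p = 0.089) and Prpf8 (0.095) lowest. In the 10 pairs, with p adjusted over all genes and pairs together, 0 members and 0% of all genes were called, while 15 members had an unadjusted p under 0.05 in at least 1 pair. The lowest 3 belonged to Prpf8 in WMS-64 minus WMS-83 (-0.24, 95% interval -0.41 to -0.07), to Hnrnpul1 in the same pair (-0.18, -0.31 to -0.04) and to Prpf4b in WMS-64 minus WMS-75 (-0.23, -0.41 to -0.05), all with an adjusted p of 1.00. Across the pairs 56 to 61 of the 64 intervals lay within 0.5 of zero. The widest bound of each pair belonged to Srsf12, the member with the fewest counts (1.39 in WMS-200 minus WMS-76), or to Snrpg.

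Inside single cell types, where the 5 agonists stand in as replicates of treatment and DMSO has 1 library, edgeR without a block called members in Treg only. In Th1 0 members and 0% of all genes were called, 1 member had an unadjusted p under 0.05, and Prpf39 (0.45) and Srsf12 (1.14) had the lowest p. In Th17 0 members were called against 0.0378% of all genes, 0 had an unadjusted p under 0.05, and Hnrnpk and Sf3b6 had the lowest p. In CD8 0 members were called against 0.0063%, 1 had an unadjusted p under 0.05, and Hnrnpa3 (-0.27) and Srsf12 (-0.86) had the lowest p. DESeq2 and limma-voom also called 0 members in these 3 cell types. With the WT number as a block, the Th17 estimate rested on 1 agonist library, that of WMS-83, against DMSO. The term for WT number 3 in it came from Treg. Hnrnpll stood at 0.76 there and at 0.09 without the block, and no agonist effect in Th17 is read from this. In Treg 19 members were called, 18 higher with the agonists and 1 lower, where 8.82% of all genes were called in either direction. They were 6 Snrp, 6 hnRNP, 4 SF3A/SF3B and 3 PRPF genes and no SR protein gene. Hnrnpll was among them (0.65 ± 0.17), although its levels with DMSO and WMS-200, both of WT number 3, lay close together. The median log2 fold change was 0.24 over the members and 0.07 over all genes.

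The lowest p in Treg belonged to Prpf31, whose product holds the tri-snRNP together. It had 22.997 CPM with DMSO, 36 with WMS-200, and 45.2, 40.4, 45.96 and 45.15 with WMS-64, WMS-75, then WMS-76 and WMS-83 (log2 0.89 ± 0.13, edgeR adjusted p = 0.00082). Snrpd3 had 13.1 CPM with DMSO, 22.8 with WMS-200 and 28.1, 24.1, 26.6 and 28.9 with the others (0.99 ± 0.17). Hnrnpab had 100.1 CPM with DMSO, 156.8 with WMS-200 and 188.2 to 231.4 with the others (0.96 ± 0.15). DMSO was lowest in each, WMS-200 was next, and the 4 libraries of WT number 2 were highest. Snrpg had the largest estimate, 2.08 ± 0.36, over 4.12 CPM with DMSO and 14.0 to 19.7 with the agonists, and Snrpd1 (1.11 ± 0.19), Snrpf (0.94 ± 0.24) and Sf3b4 (0.81 ± 0.16) followed. Sf3b1 was the 1 member lower with the agonists (-0.36 ± 0.11, adjusted p = 0.045). Ribosomal protein genes took 1.67% of counts in the DMSO library, 2.07% with WMS-200 and 2.22% to 2.82% with the others. Of 95 ribosomal protein genes 46 were called higher with the agonists in Treg, as were 7 of 10 proliferation genes. Of all genes 8.82% were called there in either direction. The part of both sets in the differences of the members was not tested.

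In Treg the agonists and the WT number are partly confounded, since 4 of 5 agonist libraries carry WT number 2 and DMSO carries 3. Of the 64 members, 28 lay lower in both libraries of WT number 3 than in all 4 of WT number 2, where 21.3% of all genes did, and 5 lay higher, where 15.9% did. With the WT number as a block added over all cell types, the Treg estimate came down to WMS-200 against DMSO, the libraries of WT number 3. Prpf31 stood at 0.65 there, and the other agonists did not enter. Whether the agonist effect differs between cell types was tested as well: 2 members passed, where 0.176% of all genes did, namely Prpf31 (adjusted p = 0.017) and Snrpd3 (0.038). That count fell to 1 without any single one of 11 libraries: in Th1 that of WMS-200, WMS-64, WMS-75 or WMS-76, in Th17 that of WMS-200 or WMS-64, in Treg that of WMS-64 or WMS-76, and in CD8 that of WMS-200, WMS-75 or WMS-83. It rose to 6 without the WMS-75 library of Th17 and to 11 without the WMS-200 library of Treg.

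**Figure D5:**
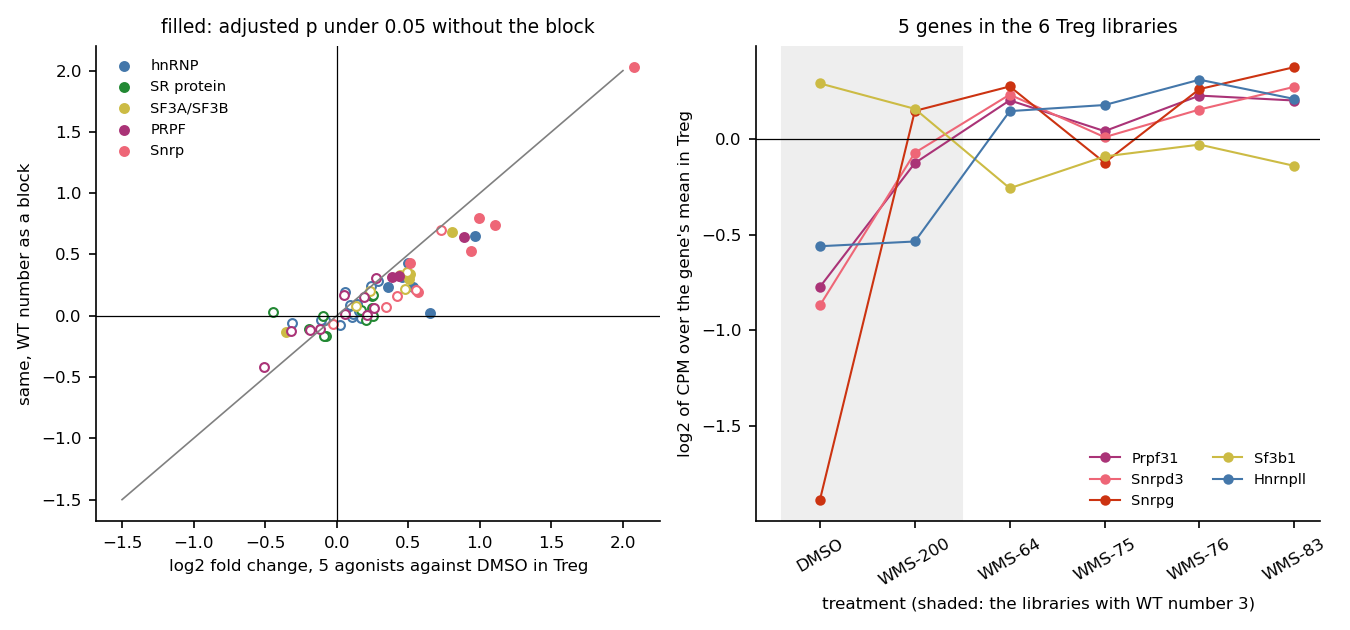
Left, log2 fold change of the 5 agonists against DMSO in Treg for the 64 genes (x axis) and the same with the WT number as a block (y axis), where filled points passed the threshold without the block and the grey line marks equal values. With the block the value rests on the libraries of WMS-200 and DMSO alone. Right, log2 of CPM over the gene's mean in Treg (y axis) for 5 genes in the 6 Treg libraries (x axis), where the shaded libraries carry WT number 3. Hnrnpll is level within the shaded pair, whereas Prpf31, Snrpd3 and Snrpg are lowest with DMSO.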

How the data were processed

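The authors deposited raw counts per gene. Per the submitters' processing notes the tools were featureCounts, HISAT2 and fastp. For versions, strand setting, genome build and annotation the sources used here give nothing, so reads shared with antisense genes, paralogs or pseudogenes cannot be told apart. All 24 columns were matched to samples through the labels, with 0 left over. The members and gene lists were chosen with earlier results of these data known. With edgeR 4.0.16 in R 4.3.3, genes were filtered with filterByExpr (grouped by cell type, minimum count 10, 15885 kept, 12567 protein coding), scaled by TMM and fitted by quasi-likelihood with robust dispersion over all 24 libraries. Model 1 had cell type and compound (15 residual degrees of freedom, biological coefficient of variation 0.133) and model 2 agonist or DMSO within cell type (16 and 0.127). In model 2 the lone DMSO library is assumed to vary like the other groups. P was adjusted by Benjamini-Hochberg over all genes tested, and intervals are at 95%. The fits were also run on simulated counts with a common mean per gene apart from planted changes. That setting lacks the cell type differences of these data, and no result is drawn from it. CPM are TMM-scaled. DESeq2 1.42.0, limma 3.58.1, upper quartile scaling, no filter, length offsets, a block for the WT number and leaving out each library were alternatives. Members named were those with a fixed role, the 5 largest rises and falls in each cell type contrast, the 2 lowest p in each agonist comparison (3 for pairs) and the 3 highest and lowest levels per kilobase, with others given to complete a family and chosen after their values were seen. Labels give no replicate numbers. One title names Th17 for a library whose other labels say Th1, and it was taken as Th1.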

Additional observations from a re-analysis of the deposited data

Results flagged for a closer look

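Among 164 sets of 6 libraries (41 named members in 4 cell types) 6 held a library far from the others, judged by the gap to its neighbour over the whole range (Dixon's criterion, 0.625 for 6). Chance flags about 1 in 20 such sets. In Treg, Snrpg was lowest in the DMSO library (4.12 CPM, next 14.0), Hnrnpu was highest with WMS-200 (873.6 CPM, next 795.9) and Hnrnpul1 was highest with WMS-83 (525.2 CPM, next 456.1). In Th17, Snrpd3 was lowest with WMS-75 (70.3 CPM, next 87.7), in the library whose removal also ended the calls of Snrpf and Snrpd2. In CD8, Hnrnpa3 was highest with DMSO (95.2 CPM, next 82.0), and in Th1, Prpf31 was highest with DMSO (83.4 CPM, next 77.7).

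The effect of the agonists differed between cell types for Prpf31 (edgeR F-test, adjusted p = 0.0167), with log2 estimates of 0.89 in Treg, -0.12 in Th1, -0.11 in Th17 and 0.02 in CD8. The same test passed for Snrpd3 (adjusted p = 0.0379), with 0.99 in Treg, -0.02 in Th1, -0.01 in Th17 and -0.16 in CD8. The part of the WT number in both was not tested, since the block given above leaves only WMS-200 against DMSO in Treg.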

How the results depend on the processing

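Counts of members called kept within 1.5 times their main value under every alternative for Treg, Th17 and all cell types, and were 0 under every alternative for the agonists together and for each compound against DMSO. Without 1 library in turn, Treg kept 57 to 58 members, Th17 16 to 27 and the agonists in Treg 15 to 22. Th1 against CD8 gave 1 with no filter and 4 without Treg, and the pairs of agonists gave 1 with no filter. With the WT number as a block the agonists gave 1 in Th17 and 1 in Treg, and with length offsets added to that block, an alternative chosen after the data were seen, 1 and 2. The effect of agonists by cell type gave 6 with DESeq2, 11 with no filter, 1 each with limma-voom, upper quartile scaling, length offsets, the block and both of these together, and 1 to 11 without 1 library in turn. Hnrnpa2b1 turned to -0.0133 in Treg with length offsets, and Hnrnpu to 0.0280 and Srsf7 to 0.15 with upper quartile scaling. Over protein coding genes only, the members' share was 1.58% in Treg, 1.53% in CD8, 1.52% in Th1 and 1.51% in Th17, and without ribosomal protein and mitochondrial genes 1.63%, 1.72%, 1.74% and 1.71%. For 109 changes of named members, 729 of 768 fits under other settings and 2568 of 2608 with 1 library left out kept the call. Among these fits, a member called in both kept its direction, and a member called in neither counts as kept whatever its sign. The cause of these shifts was not tested. No paired analysis was possible because the labels give no replicate numbers and every group holds 1 library. The block used the WT number of the column names, whose meaning no label states. Leaving out the DMSO library of a cell type leaves no comparison with agonists there, so none is given. Srsf12 has the fewest counts of the members, down to 12 in a library.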
